A study of Mus musculus with 2 samples.

Results

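The signalling lymphocytic activation molecule (SLAM) family is a group of immunoglobulin-type surface receptors of blood cells, and its transcripts were compared here between the main conventional dendritic cell (DC) populations of mouse spleen. The 8 family genes examined were Slamf1, Slamf6, Slamf7, Slamf8, Slamf9, Cd48, Cd84 and Ly9. They were taken by name, with earlier results of these data known. They held 13 of the 34958 probe sets that the array annotation gives to a single gene, and 8 of 18194 genes. A probe set is a set of short DNA probes read together for 1 transcript. Both populations came from C57BL/6 mice that carried B16 melanoma cells, a mouse tumour line, producing Flt3 ligand, a cytokine that expands DCs. The tumour cells were placed in the back, and the spleens were used 10 to 12 days later. Both populations thus come from tumour-bearing mice exposed to Flt3 ligand. CD11c+ cells without CD3 or B220 were sorted into CD8+ DCs (with surface CD8α) and CD8- DCs (without it), and neither was stimulated. Total RNA of each population was hybridised to 1 array. The number of mice per sort is not stated in the labels.

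Most SLAM receptors bind the same receptor on a neighbouring cell, so they can act between DCs and lymphocytes as well as between DCs. Their tails carry switch motifs whose tyrosine, once phosphorylated, recruits small SH2 adaptors of the SAP family or, in their absence, inhibitory phosphatases. CD48, SLAMF8 and SLAMF9 are exceptions: CD48 is held by a lipid anchor and has no tail, and the tails of SLAMF8 and SLAMF9 carry no switch motif. The family genes lie in a shared stretch of mouse chromosome 1.

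Values are log2 signals, on which a step of 1 is a 2-fold difference, and every difference is CD8+ minus CD8-. Genes were taken as measured if either array reached 3.85, the median over the whole table, called the floor here. With 1 array per population no value has a replicate and no test was possible. Differences between mice, between sorts and between hybridisations are therefore part of each value, and the number of arrays limits the precision. Within the pair, 45 control probe sets differed by 0.07 ± 0.12 (mean ± SD over probe sets). The differences of probe sets for the same gene had a pooled SD of 0.30 across 5183 genes. Neither measures variation between mice. In bulk RNA, fewer cells that express a gene and less RNA per cell cannot be told apart. The labels matched the marker genes in direction. Of 9 measured CD8+ DC markers, 8 favoured CD8+ DCs by 2-fold or more, beside 3.55% of all measured genes. Of 7 measured CD8- DC markers, 7 favoured CD8- DCs by as much, beside 5.97%. The median differences of these lists were 2.35 and -4.20. All 9 CD8+ DC markers were also above the floor in CD8- DCs, Irf8 (10.23) and Xcr1 (8.45) among them. The part of cells with such transcripts in the CD8- values was not tested.

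Of the 8 family genes examined, Slamf9 alone differed by 2-fold or more between the populations, and it was higher in CD8- DCs. Cd244a, listed here as a related receptor and not among the 8, was also past 2-fold in favour of CD8- DCs. Of the 8 genes, 7 were measured, each above the floor on both arrays, and Slamf1 was below it on both. None favoured CD8+ DCs by 2-fold, a background of 3.55% of the 11404 measured genes. The 1 gene past 2-fold in CD8- DCs stands against 5.97% of measured genes in that direction. With 7 genes, neither count sets the family apart from the rest of the array. The median difference of the 7 genes was -0.24, and that of all measured genes was 0.03. Their median absolute difference was 0.60, and that of all measured genes was 0.25. These medians rest on 7 genes taken with earlier results known and on 1 array per population, and the gap was not tested.

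**Figure D1:**
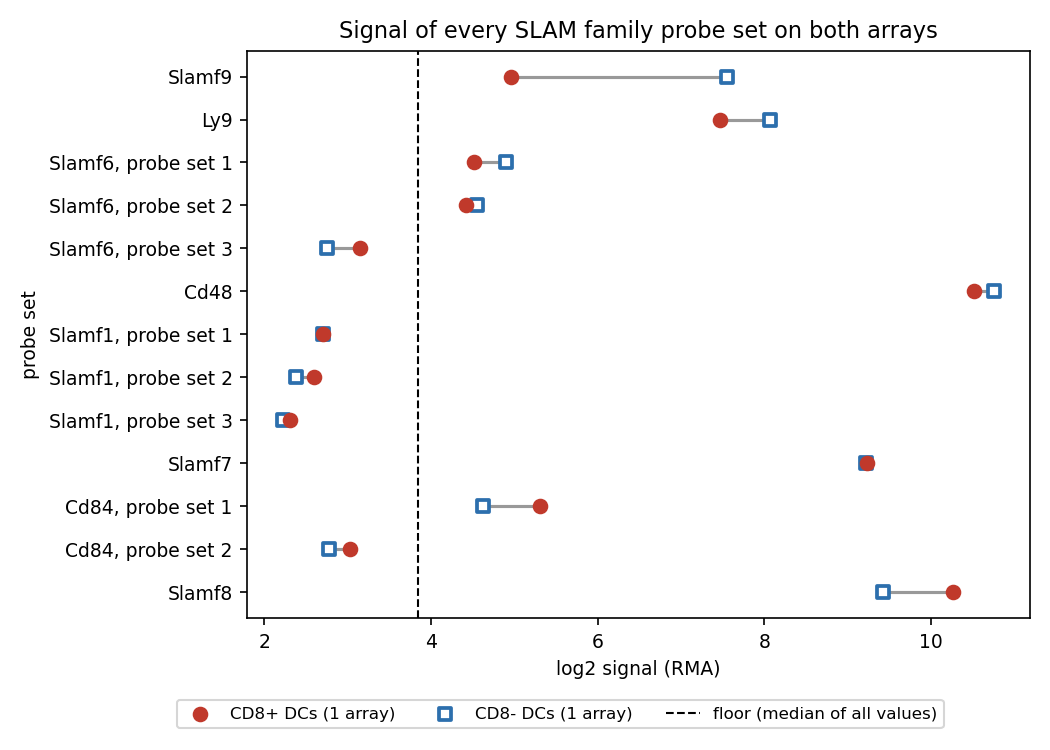
Log2 signal (horizontal axis) of the 13 SLAM family probe sets (rows, sorted by the difference of their gene), with a filled circle for CD8+ DCs and an open square for CD8- DCs, 1 array each, and a dashed line at the floor of 3.85. The wide gap is that of Slamf9 (4.96 and 7.55), and all 3 Slamf1 probe sets lie left of the line.

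Slamf9 (Entrez Gene 98365), an orphan member of the family known from myeloid cells, read 4.96 on the CD8+ array and 7.55 on the CD8- array, as log2 signal. Both values were above the floor, the CD8+ value by little more than 1 step and the CD8- value by more than 3. The difference of -2.60 corresponds to a 6.05-fold higher signal in CD8- DCs, so that CD8+ DCs had 16.5% of the CD8- signal. Of all measured genes, 1.64% differed by at least as much in either direction. Slamf9 had 1 probe set, so no second probe set of the gene bears on this value. Macrophage and monocyte markers were looked at beside it, because macrophages also carry SLAMF9. Of 9 such markers, 7 had a single-gene probe set and 4 were measured, and the 7 summed on the linear scale to 300.3 in CD8+ DCs and 439 in CD8- DCs. Adgre1, a widely used macrophage marker gene, was 12.1-fold higher in CD8- DCs (4.63 and 8.22), whereas Cd14 was 2.63-fold higher in CD8+ DCs. The other measured markers, Vcam1 (5.52 and 4.66) and Marco (4.58 and 4.18), were also higher in CD8+ DCs. Of the 4 measured markers, 3 were thus higher in CD8+ DCs and 1, Adgre1, in CD8- DCs. This tally leaves out Csf1r, Cx3cr1 and Itgam, which were listed as CD8- DC markers. Csf1r (6.40 and 10.56), Cx3cr1 (3.35 and 7.81) and Itgam (2.78 and 7.77) were each higher in CD8- DCs, as were all 7 measured genes of that list. Spic, Cd5l and Mertk, genes of tissue macrophages, were below the floor on both arrays. The part of such cells in the Slamf9 difference was not tested.

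Slamf8 (Entrez Gene 74748), which encodes a receptor of myeloid cells known to restrain the phagocyte NADPH oxidase, differed in the opposite direction. It read 10.26 in CD8+ and 9.42 in CD8- DCs, bright on both arrays. The difference of 0.84, or 1.79-fold in favour of CD8+ DCs, was the largest of the family in that direction and stayed under 2-fold. At least as large a difference in either direction was found for 12.4% of measured genes. Slamf8 too had a single probe set.

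**Figure D2:**
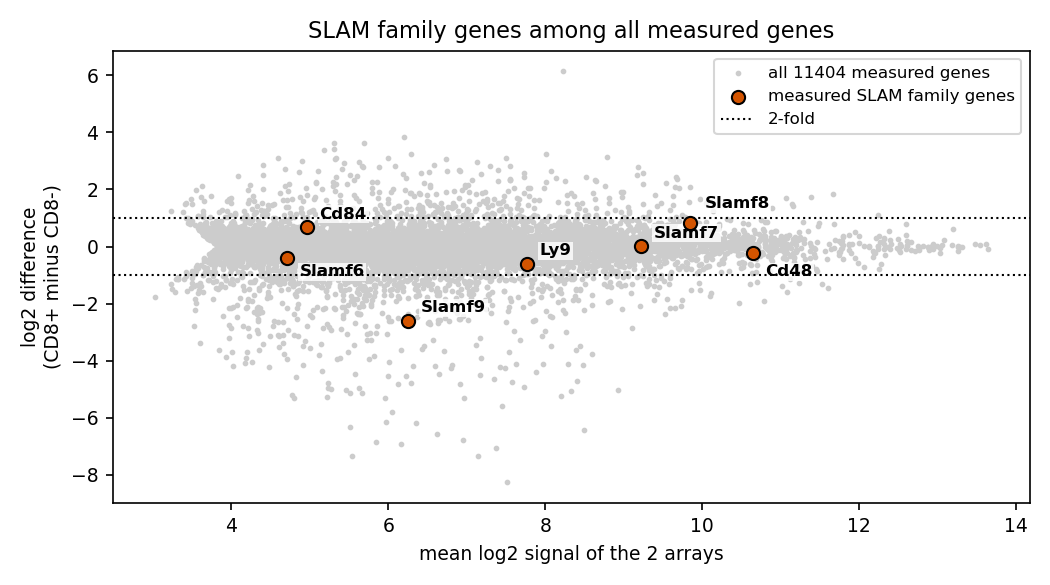
Log2 difference, CD8+ minus CD8- (vertical axis), against the mean log2 signal of the 2 arrays (horizontal axis) for all 11404 measured genes (grey points) and the 7 measured SLAM family genes (labelled points), with dotted lines at 2-fold. Slamf9 lies at -2.60, below the lower line, and the other 6 lie between the lines.

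The start regions of Slamf9, Slamf8 and Slamf7 are shown because these genes have the family's lowest difference, its highest and the one nearest to 0. Each is 250 bases before to 50 bases after the annotated start, 5′ to 3′ on the gene's strand, from RefSeq on GRCm38.p6. Slamf9 is at chr1:172475110-172475409 (+ strand), Slamf8 at chr1:172590519-172590818 (- strand) and Slamf7 at chr1:171648950-171649249 (- strand). Capitals mark matches to 5 searched motifs.
Slamf9: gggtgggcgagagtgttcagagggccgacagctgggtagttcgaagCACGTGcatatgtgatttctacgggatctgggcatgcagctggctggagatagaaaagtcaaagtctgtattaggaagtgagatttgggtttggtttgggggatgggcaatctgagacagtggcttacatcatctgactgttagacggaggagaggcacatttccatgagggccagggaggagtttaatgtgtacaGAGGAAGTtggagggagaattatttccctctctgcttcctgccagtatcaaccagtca
Slamf8: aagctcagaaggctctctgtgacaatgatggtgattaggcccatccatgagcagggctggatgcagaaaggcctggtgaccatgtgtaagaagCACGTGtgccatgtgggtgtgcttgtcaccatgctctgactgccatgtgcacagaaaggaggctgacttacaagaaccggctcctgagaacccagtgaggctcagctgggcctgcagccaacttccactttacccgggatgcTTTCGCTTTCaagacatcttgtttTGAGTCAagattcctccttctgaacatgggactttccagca
Slamf7: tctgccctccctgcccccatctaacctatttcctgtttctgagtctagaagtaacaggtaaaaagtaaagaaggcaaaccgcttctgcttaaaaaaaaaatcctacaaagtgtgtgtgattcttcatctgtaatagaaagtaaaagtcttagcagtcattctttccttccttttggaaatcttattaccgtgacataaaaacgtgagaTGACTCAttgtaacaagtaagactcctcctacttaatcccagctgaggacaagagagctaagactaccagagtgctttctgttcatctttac

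The motifs were chosen after the sequences and values had been seen, were searched on both strands, and no match overlapped another motif. They were GAGGAAGT (the core of sites for PU.1, an ETS factor of myeloid cells), CACGTG (an E-box), TGANTCA (AP-1), GAAANNGAAA (the interferon response element) and GGAANNGAAA (the composite element of ETS and IRF factors). Of 32851 RefSeq start regions of this length, 3.20%, 7.15%, 7.81%, 3.44% and 2.72% held these motifs in that order. Positions are counted from the start, with negative numbers before it. Slamf9 held GAGGAAGT from -8 to -1, directly before the start, and CACGTG from -204 to -199. Slamf8 held CACGTG from -157 to -152, a match to the interferon response element from -15 to -6 and TGAGTCA from 9 to 15, after the start. Slamf7 held TGACTCA from -42 to -36. Of the 7 family genes with an entry (Ly9 had none in the table), 1 held GAGGAAGT, 2 held CACGTG, 3 held TGANTCA, 1 held GAAANNGAAA and none held GGAANNGAAA. These matches describe letters in a window and show no binding.

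Ly9, Cd84, Slamf6 and Slamf7, members with a signalling tail, were each under 2-fold apart between the populations. Ly9 (Entrez Gene 17085), which encodes CD229, a self-binding receptor of lymphocytes, was at 7.47 in CD8+ and 8.07 in CD8- DCs. The difference of -0.60 is 1.51-fold in favour of CD8- DCs. Cd84 (Entrez Gene 12523), a self-binding receptor also known from B cells and platelets, was at 5.31 in CD8+ and 4.62 in CD8- DCs, 1.61-fold in favour of CD8+ DCs. Both values were in the lower part of the range above the floor. The other Cd84 probe set was below the floor on both arrays, at 3.03 and 2.78, so 1 of 2 probe sets carries that value.

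Slamf6 (Entrez Gene 30925), which encodes Ly108, a receptor best known from T and NK cells, was low on both arrays. Its brightest probe set was at 4.51 in CD8+ and 4.90 in CD8- DCs, a difference of -0.39. The next read 4.42 and 4.55, a difference of -0.13, and the third was below the floor, at 3.15 and 2.75. The probe sets above the floor had CD8- DCs higher, and the dim one had CD8+ DCs higher. Averaging all 3 left a difference of -0.04, of the same sign but very small. The size of the Slamf6 difference thus rests on which probe sets are used.

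Slamf7 (Entrez Gene 75345), which encodes CRACC, a self-binding receptor of NK cells, plasma cells and macrophages, was nearly equal at 9.23 in CD8+ and 9.22 in CD8- DCs. Its difference of 0.02 turned to -0.02 when each array was centred on its median and to -0.01 when a trend of the difference on signal was subtracted. The value thus carries no direction. The plasma cell genes Jchain, Sdc1 and Tnfrsf17 were below the floor on both arrays. Of the 5 plasma cell markers, 2 were measured, with a summed linear signal over all 5 of 1214 in CD8+ and 1014 in CD8- DCs, most of it from Xbp1 (10.21 and 9.92), which DCs also express. The other measured marker, Prdm1, was at 3.08, below the floor, in CD8+ DCs and at 4.53 in CD8- DCs. The part of plasma cells in the Slamf7 value was not tested.

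Cd48 (Entrez Gene 12506), the lipid-anchored member and the ligand of CD244 and CD2, was bright on both arrays, at 10.52 in CD8+ and 10.76 in CD8- DCs. Its difference of -0.24 was smaller than the pooled SD of 0.30 between probe sets of a gene, as was that of Slamf7. At least as large a difference in either direction was found for 52.3% of measured genes. Slamf1 (Entrez Gene 27218), which encodes CD150, a receptor of lymphocytes and macrophages that also binds bacterial proteins, was below the floor with all 3 of its probe sets. They read 2.70 on both arrays, 2.60 in CD8+ and 2.38 in CD8- DCs, and 2.30 and 2.22. Its transcript was not detectable above the floor in either population with these probes, and no fold is given.

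The family genes were thus split in direction. Of the 7 measured genes, Slamf9, Ly9, Slamf6 and Cd48 were higher in CD8- DCs, and Slamf8, Cd84 and Slamf7 were higher in CD8+ DCs, of which Slamf7 turned under centring. Of all measured genes, 44.8% were higher in CD8- DCs. Lymphocytes carry most of these receptors, and their markers were therefore read on the same arrays. Of 8 T cell markers, 6 were below the floor on both arrays, Cd3d and Cd3g among them. The other two, Cd3e (4.76 and 4.90) and Cd5 (3.95 and 4.87), were above it on both arrays, and all 8 summed on the linear scale to 94.4 in CD8+ DCs and 108 in CD8- DCs. Of 7 B cell markers with a probe set, Cd79a, Pax5 and Cr2 were below the floor on both, and 4 were measured. The sum of the 7 was 325 in CD8+ and 221 in CD8- DCs. Fcrla was 5.99-fold higher in CD8+ DCs, and Cd79b was higher in CD8- DCs by at least 6.72-fold. Ms4a1 (5.74 and 4.99) was 1.68-fold higher in CD8+ DCs, and Blk (4.30 and 4.60) was slightly higher in CD8- DCs. Of the 7 plasmacytoid DC markers with a probe set, all were measured, with sums of 587 and 581. Within that list Tcf4 was 4.24-fold higher in CD8- DCs (5.47 and 7.55), Ccr9 was 4.26-fold higher in CD8+ DCs (8.03 and 5.94), and Siglech was near the floor at 3.71 and 4.04. The part of these cells in the values of the family was not tested.

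Along the chromosome, 1 measured gene between or beside the 8 family genes examined passed 2-fold, the related receptor gene Cd244a. RefSeq places 21 other protein-coding genes from Cd244a, next to Ly9, to Fcrl6, next to Slamf8. Of these, 18 had a single-gene probe set and 12 were measured. Cd244a was the 1 of the 12 past 2-fold, in favour of CD8- DCs, beside 5.97% of all measured genes. It was counted as a neighbour because it was not among the 8. No other measured neighbour reached 2-fold. With 12 genes, the count of 1 does not set the neighbours apart from the rest of the array. Their median difference was -0.20, and that of all measured genes was 0.03. Slamf9 lies between Pigm (6.35 and 6.14) and Igsf9 (4.50 and 4.37), both picked once their values were known, which differed by 0.22 and 0.13. The -2.60 of Slamf9 was thus not shared by either gene beside it. Slamf8 and Slamf9 are separated by Igsf9, Tagln2, Cfap45 and Vsig8, of which Tagln2 differed by -0.67 and the last 2 were below the floor.

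**Figure D3:**
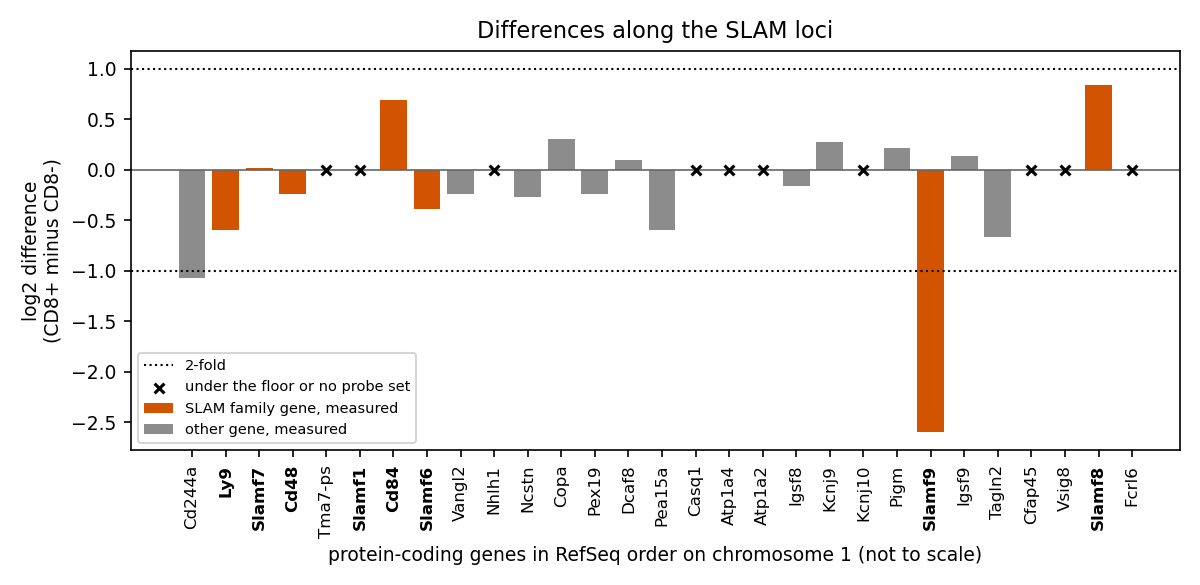
Log2 difference, CD8+ minus CD8- (bars), of protein-coding genes in their RefSeq order on chromosome 1 (horizontal axis, not to scale), with SLAM family genes in colour and bold, other measured genes in grey, crosses for genes below the floor or without a single-gene probe set, and dotted lines at 2-fold. Slamf9 (-2.60) and Cd244a (-1.07, in grey as it is not among the 8 family genes examined) pass the lower line, and no gene passes the upper one. The small bar of Slamf7 turned sign under centring and trend subtraction.

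Of the receptors listed here beside the 8 family genes examined, Cd244a (Entrez Gene 18106), which encodes the CD48 receptor CD244 (2B4), was higher in CD8- DCs. Its brighter probe set was at 7.80 in CD8+ and 8.87 in CD8- DCs, a difference of -1.07 or 2.10-fold. Its other probe set read 7.67 and 8.84, a difference of -1.18, so both probe sets placed CD8- DCs higher by slightly more than 2-fold. Its ligand Cd48 differed by -0.24 on the same arrays. NK cells are the best known carriers of CD244. Of 8 NK cell markers, 7 had a probe set and 3 were measured, with summed linear signals of 761 in CD8+ and 1236 in CD8- DCs. Klrk1 (9.44 and 10.17) made up most of that sum, and Klre1 was 2.15-fold higher in CD8- DCs (4.16 and 5.26). The third measured marker, the perforin gene Prf1, was just above the floor on both arrays (4.04 and 4.11). Ncr1, Gzma, Gzmb and Eomes were below the floor on both. The part of NK cells in the Cd244a difference was not tested. Cd2, which encodes another CD48 receptor, was below the floor at 2.31 and 2.47.

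The SAP adaptor gene Sh2d1a was below the floor in both populations, at 1.91 in CD8+ and 2.08 in CD8- DCs. SAP is the adaptor of T and NK cells that links SLAM tails to the kinase Fyn. Sh2d1b1 and Sh2d1b2, the genes of the related adaptors EAT-2 and ERT, had no single-gene probe set in the annotation used and were not analysed here.

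Of the genes that act behind SLAM receptors, those of a Src family kinase, a paracaspase and a phosphatase differed most, and each was higher in CD8- DCs. Of 36 genes listed beside the family, 32 had a single-gene probe set and 27 were measured. Past 2-fold, 4 of them favoured CD8- DCs and none favoured CD8+ DCs, beside backgrounds of 5.97% and 3.55%. The 4 were Cd244a, Fgr, Ptpn6 and Malt1, and the median of the 27 genes was -0.14, near the 0.03 of all measured genes. Fgr, a Src family kinase of myeloid cells, was at 5.22 in CD8+ and 9.14 in CD8- DCs, or 15.1-fold higher, and its 2 probe sets differed by -4.09 and -3.92. Ptpn6, which encodes the phosphatase SHP-1 that binds switch motifs, was at 8.81 and 10.68, or 3.66-fold higher, with probe sets at -1.87 and -1.85. The probe sets of each gene thus gave nearly the same difference.

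The other kinases and phosphatases of this list stayed under 2-fold. Inpp5d, which encodes the inositol phosphatase SHIP-1 recruited by SLAM tails, was 1.51-fold higher in CD8+ DCs (10.31 and 9.72). Csk, the kinase that holds Src family kinases inactive, was 1.44-fold higher in CD8- DCs (8.09 and 8.62). Fyn, chosen after its values were seen as the kinase that SAP recruits, was nearly equal at 8.30 and 8.25. Over the 7 measured genes of this list the median was 0.03, and 2 passed 2-fold, both of them in favour of CD8- DCs. Lyn and Lck had no single-gene probe set in the annotation used.

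Of 15 measured effectors further downstream, 1 passed 2-fold. Malt1, the paracaspase that with Bcl10 carries signals to NF-κB, was at 6.85 in CD8+ and 9.28 in CD8- DCs, or 5.40-fold higher, and its probe sets differed by -2.43 to -1.75. The exchange factor genes Vav3 (7.71 and 7.14) and Vav2 (5.48 and 6.04) differed in opposite directions by less than 2-fold. Prkcq, a protein kinase C gene of T cells, was at 4.31 in CD8+ DCs and just below the floor, at 3.83, in CD8- DCs. The median of the list was -0.16.

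The partners that SLAMF1 engages at the phagosome were measured although Slamf1 itself was not. None of the 4 reached 2-fold, and their median was -0.07. Uvrag, a regulator of the class III phosphoinositide kinase complex, was 1.54-fold higher in CD8- DCs (8.78 and 9.40). The kinase gene Pik3c3 (6.62 and 6.76), its regulatory subunit gene Pik3r4 (6.43 on both arrays) and the Beclin 1 gene Becn1 (8.52 and 8.45) were nearly equal.

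**Figure D4:**
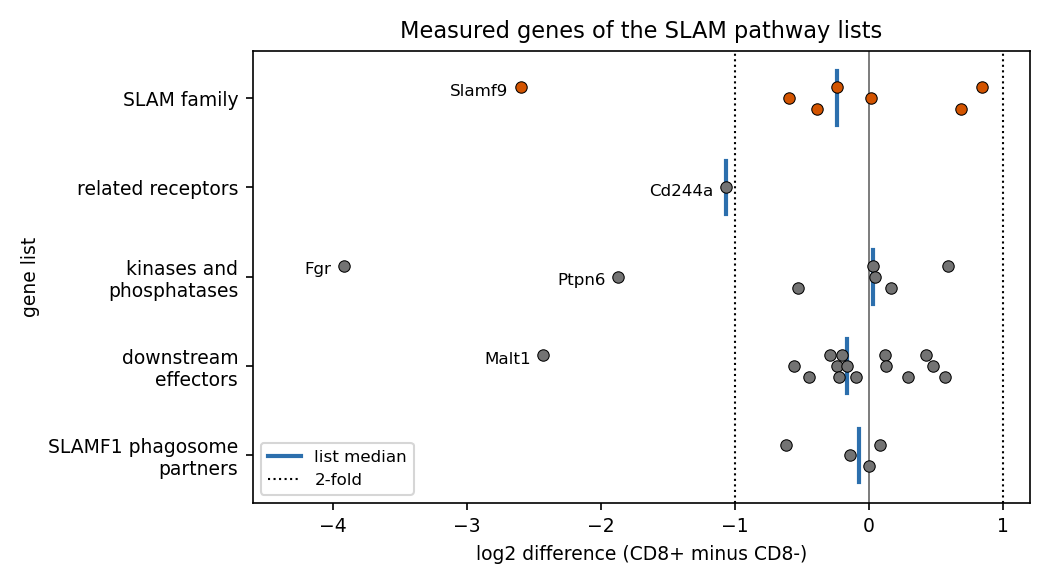
Log2 difference, CD8+ minus CD8- (horizontal axis), of each measured gene (points, spread vertically for visibility) in 5 lists (rows), with the list median as a vertical bar and dotted lines at 2-fold. The 5 named points, Slamf9, Cd244a, Fgr, Ptpn6 and Malt1, lie left of the lower line, and no point lies right of the upper one.

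By distance between the pairs of log2 values, the measured genes closest to Slamf9 were Pag1 (4.87 in CD8+ and 7.54 in CD8- DCs, distance 0.09), Rgs12 (5.07 and 7.44, distance 0.16) and Arap2 (5.13 and 7.61, distance 0.18). This likeness rests on 2 arrays.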

How the data were processed

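Total RNA of 2 sorted DC populations was measured on Affymetrix arrays, 1 per population. The deposited table holds log2 signal per probe set, made by the authors with RMA per the submitters' processing notes; the version of RMA, and which arrays it normalised jointly, is not given in the sources used here. RMA equalises the arrays' distributions (sorted values differed by at most 0.11), so a shift shared by most genes would not be seen. Array medians were 3.86 (CD8+) and 3.83 (CD8-).

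Of 45101 probe sets, 34958 had 1 gene symbol, 932 had several and 9211 were unlisted here. Platform symbols were updated by gene identifier through RefSeq's GRCm38.p6 gene table (34754 matched). Only single-gene probe sets were used, and the one with the highest mean stood for its gene. Where the dimmer value was below the floor, the fold is "at least", with the floor in its place. The members and gene lists were chosen with earlier results of these data known, and 1 listed pathway gene is not reported here.

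Named genes were all members, related receptors and SAP adaptors, the 4 most different genes of every other pathway list, neighbours past 2-fold, and the 3 genes nearest to each member past 2-fold. The pair comparison was checked on simulated data, with differences larger than the threshold planted in brighter genes. That check bears on the code only, not on dim genes or on variation between mice or sorts. Python 3.11.15, numpy 2.4.6, pandas 2.3.3, statsmodels 0.14.6 and matplotlib 3.10.9 were used. Alternatives were median centring, a lowess trend (span 0.3), no filter, a floor at the 75th percentile, the mean of probe sets, leaving out probe sets whose names end in _x_at, _s_at or _a_at, setting low values to the floor, and thresholds of 1.5-fold and 4-fold.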

Additional observations from a re-analysis of the deposited data

How the results depend on the processing

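The counts of family genes past 2-fold, 0 in CD8+ and 1 in CD8- DCs, were the same under all 7 alternatives that kept the threshold. Slamf9 ranged from -2.63 to -2.58. It has 1 probe set, above the floor on both arrays, so only centring and the lowess trend could change its value. The other alternatives say nothing about its stability. At 1.5-fold, 2 family genes favoured CD8+ DCs and 2 favoured CD8- DCs, beside 8.49% and 11.5% of all measured genes, and 1 other pathway gene was higher in CD8+ DCs. At 4-fold, 2 other pathway genes were higher in CD8- DCs, against 4 at 2-fold. Among single genes, the Slamf6 difference of -0.39 moved by more than 0.30, to -0.04 with its 3 probe sets averaged, of which 1 was below the floor. Cd244a, close to the threshold, ranged from -1.18 to -1.07. With the floor at the 75th percentile, 5 family genes were measured, and without probe sets prone to cross-hybridisation 6 were. No paired analysis was possible because each population had 1 array.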
